A study of Saccharomyces cerevisiae with 20 samples.

Results

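Budding yeast (*Saccharomyces cerevisiae*) libraries labelled *elp3 deg1* were compared with libraries labelled *elp3 tcd1*, in which both *ELP3* and 1 other tRNA modification gene are named as deleted. The comparison rests on 7 of the 20 libraries of the study, namely 4 labelled *elp3 deg1* and replicates 1 to 3 of those labelled *elp3 tcd1*, and it covers 5824 of the 7071 nuclear genes in the count tables. Replicate 4 of the latter label was left out because its counts of the deleted genes go against its name (345 for *ELP3* and 0 for *URM1*). Polyadenylated RNA was sequenced from BY4741 cells grown in minimal medium (YNB) with lysine and collected at an OD600 of 1.0 after 10 cell divisions. All groups, the wild type (WT) included, are labelled *lys2*. The *elp3 deg1* libraries thus lack *ELP3* and *DEG1* and keep *TCD1*, the others lack *ELP3*, carry the label *tcd1* and keep *DEG1*, and 4 WT libraries give the background. In the strain list of the study, *elp3 deg1* carries a kanamycin resistance cassette at *ELP3* and a fission yeast HIS marker at *DEG1*, whereas *elp3 tcd1* carries a bare loxP site at *ELP3* and the kanamycin cassette at *TCD1*. Each genotype is 1 strain, so marker, strain history and genotype cannot be told apart, and the difference between the groups combines what either deletion does.

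Transfer RNAs carry modified bases in and beside the anticodon that help the ribosome to decode. Elongator, of which Elp3 is the catalytic subunit, begins the side chain of wobble uridines (position 34). Deg1 is a pseudouridine synthase of the anticodon stem loop (position 38 and its neighbour), and Tcd1 closes the ring of the threonylcarbamoyl group on the adenosine next to the anticodon (position 37). The question behind the pair of strains concerned 2 substrates of Elongator, the glutamine tRNA with anticodon UUG, which Deg1 also modifies, and the lysine tRNA with anticodon UUU, which Tcd1 also modifies.

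The genes of these tRNAs are shown because they hold the bases that the deleted enzymes act on. Both were read from the RefSeq R64 genome, spliced where an intron is annotated, and the capitals mark the anticodon and the 2 bases after it, positions 34 to 38 counted from the first base.
tQ(UUG)C, chromosome III, 168301 to 168372, minus strand: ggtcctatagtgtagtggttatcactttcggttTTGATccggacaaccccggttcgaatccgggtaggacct
tK(UUU)D, chromosome IV, 359577 to 359672, plus strand: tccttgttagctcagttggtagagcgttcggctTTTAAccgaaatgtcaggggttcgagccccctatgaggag
The glutamine sequence is shared by 7 of the 9 genes with that anticodon, and the lysine sequence by 7 of 7. Position 38 is T in the glutamine gene and A in the lysine gene, so only the former offers a uridine there, while position 37 is A in both.

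The 7 libraries held between 3302415 and 3926511 counted reads, with a median of 3772812.5 in *elp3 deg1* and 3698870 where the label reads *elp3 tcd1*. A gene needed 3 counts, or 0.764 to 0.908 CPM (counts scaled to library size), to be told from none, and this floor covers counting error only, since reads were amplified without molecular identifiers. The 50 most abundant genes took 19.96% to 20.4% of the counts in *elp3 deg1* against 16.5% to 16.6% in the other group and 15.7% to 16.0% in WT. Nothing states that replicates were separate cultures, so p-values measure the spread between these libraries, which may be technical. The a-cell markers (*MFA1*, *MFA2*, *STE2*, *BAR1*, *AGA2*) summed to 300 to 330 CPM in *elp3 deg1*, 568 to 576 in those labelled *elp3 tcd1*, and 1115 to 1163 in WT. Those of alpha cells (*MF(ALPHA)1*, *MF(ALPHA)2*, *STE3*, *SAG1*) summed to 84.5 to 96.2, 77.5 to 83.5 and 81.1 to 106, mostly from *SAG1* and *STE3*. Of the genes that BY4741 lacks, *LEU2*, *MET17* and *URA3* had 0 counts in all 11 libraries, while *HIS3*, of which this background is known to lack only a part, had 1132 to 1689.

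The deleted genes were read first, and coordinates of genes are those of the count tables (build R64-1-1). *ELP3* (YPL086C, chromosome XVI, 384773 to 386446) had 3, 0, 1 and 0 counts in *elp3 deg1* and 3, 6 and 7 under the label *elp3 tcd1*, against 425 to 500 in WT. *DEG1* (YFL001W, chromosome VI, 147131 to 148459) had 0 counts in all 4 *elp3 deg1* libraries and 204, 209 and 212 in the others, which puts it at least 67.1-fold higher there (floor of 3 counts per library). *TCD1* (YHR003C, chromosome VIII, 110028 to 111317) had 399, 398, 379 and 448 counts in *elp3 deg1*, but 173, 147 and 185 where its deletion is labelled. The last value goes partly against the label: it is 39.7% of the WT level in CPM, and so the group is called the libraries labelled *elp3 tcd1* throughout. Fold changes below are those of *elp3 deg1* relative to them, with a standard error (SE).

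The transcriptomes differed at most genes. By edgeR's quasi-likelihood test, 1744 genes were higher and 1709 lower in *elp3 deg1* at a Benjamini-Hochberg adjusted p of 0.01 or less (59.3% of those tested, 29.9% higher and 29.3% lower). The median size of a log2 fold change was 0.30, and 439 called genes (7.54%) changed at least by 1 on the log2 scale, 153 up (2.63%) and 286 down (4.91%). Libraries of both groups did not overlap for 1884 genes that were higher in every *elp3 deg1* library (32.3%) and for 1930 that were lower (33.1%). Counts give a gene's share of the mRNA, so fewer transcripts of one gene and more of all others cannot be told apart. Scaling by total counts alone moved all log2 fold changes by a median of -0.18 and gave 1092 higher and 2607 lower genes, that is 29.5% of its calls higher against 50.5% with TMM factors. The median over all 5824 genes was then -0.19. List values under total-count scaling below stand against that median and against those counts over all genes. With TMM factors, list counts below stand against 29.9% higher and 29.3% lower over all genes. The share of the 50 most abundant genes moves with the groups too, and its part in this shift was not tested. No chromosome stood out, with medians between -0.10 and 0.05.

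**Figure D1:**
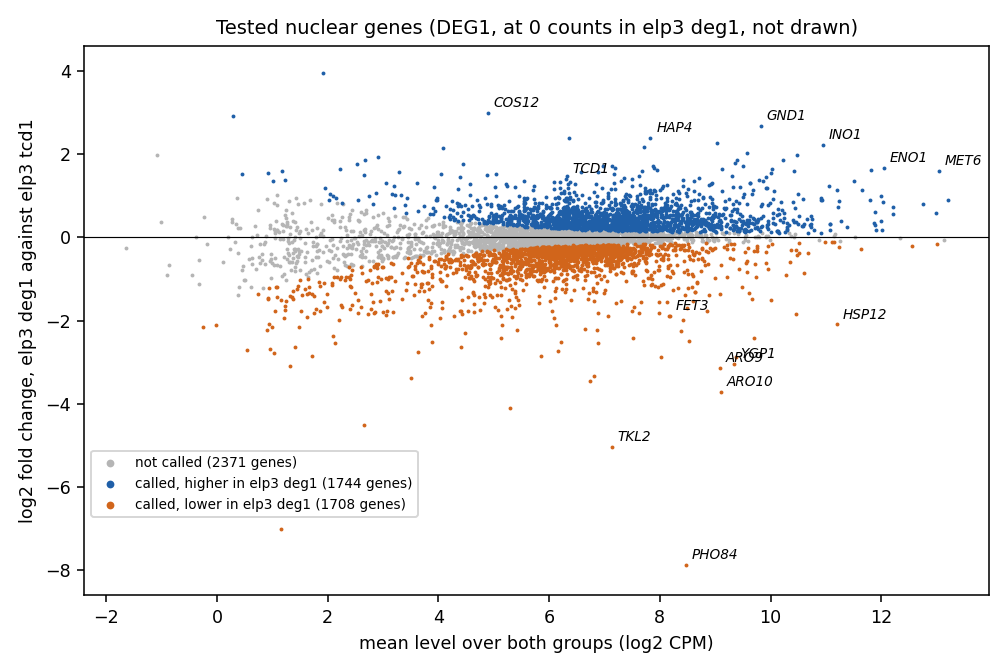
Each point is a tested nuclear gene, with its mean level over both groups (log2 CPM) on the x axis and its log2 fold change on the y axis. Blue points were called higher in *elp3 deg1*, orange points lower, and grey points were not called (*DEG1* is not drawn). Among the labelled genes *PHO84* at -7.87 and *TKL2* at -5.03 lie lowest, while abundant genes such as *MET6* (1.59) and *ENO1* (1.68) sit on the upper side.

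Apart from *DEG1* itself, the phosphate transporter gene *PHO84* fell furthest. *PHO84* (YML123C, chromosome XIII, 24037 to 25800), which serves high-affinity uptake at the plasma membrane, had 3.49, 2.29, 3.09 and 2.99 CPM in *elp3 deg1* and 719, 677 and 726 CPM in the libraries labelled *elp3 tcd1*. The groups lay on opposite sides of WT, at 119 CPM ± 13.1 (SD, n = 4), and the log2 fold change was -7.87 (SE 0.09, adjusted p = 1.8e-37 by edgeR). *TKL2* (YBR117C, chromosome II, 474392 to 476437), the minor transketolase, had 7.79, 9.43, 6.50 and 9.24 CPM against 272, 261 and 281. Here *elp3 deg1* stood near WT (4.83 CPM ± 1.52, SD, n = 4) and the other group far above it, with a log2 fold change of -5.03 (SE 0.09, adjusted p = 6.0e-32). The dubious reading frame *YBR116C* (-4.52) overlaps *TKL2* on the same strand, so reads of the pair cannot be fully separated.

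Among the 15 largest decreases was a pair of genes of the Ehrlich pathway, which turns aromatic amino acids into fusel alcohols. *ARO10* (YDR380W, chromosome IV, 1234218 to 1236125), a decarboxylase, had 71.7, 67.4, 84.1 and 87.0 CPM in *elp3 deg1* and 994, 1028 and 1041 CPM in the other libraries (log2 fold change -3.71, SE 0.06, adjusted p = 8.4e-34). *ARO9* (YHR137W, chromosome VIII, 375709 to 377250), the aromatic aminotransferase, had 97.5, 116, 118 and 112 CPM against 993, 960 and 993 (-3.15, SE 0.05, adjusted p = 2.9e-33). Both were below WT in either group, since WT had 1884 and 1709 CPM. *CHA1*, the serine and threonine deaminase, followed the same order, with 155 to 170.4 CPM, 1165 to 1183 CPM and a WT mean of 2073 (-2.86). *SPL2* (YHR136C, chromosome VIII, 374654 to 375100), an inhibitor of low-affinity phosphate uptake, lies head to head with *ARO9*, with 608 bases between them. It had 1.61, 2.86, 2.17 and 1.36 CPM against 21.9, 17.9 and 22.5 (-3.37, SE 0.22).

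Several other genes among the 15 largest decreases had WT levels closer to *elp3 deg1* than to the libraries labelled *elp3 tcd1*. *YGP1*, a cell wall glycoprotein known from stationary phase, had 133 to 150.3 CPM against 1131 to 1204 and 182 in WT (-3.04). *BDH2*, a relative of butanediol dehydrogenase, had 18.8 to 22.3 CPM against 202 to 207 and 28.5 in WT (-3.33). *NRS1*, a nitrogen-responsive regulator of cell cycle entry, had 1.63 to 5.88 CPM against 21.2 to 21.9 and 2.47 in WT (-2.75). *DAK2*, a dihydroxyacetone kinase (-3.45), and *YNL194C*, a membrane protein gene (-4.09), instead fell below WT in *elp3 deg1* and stood above it in the other group. *HXT5*, a hexose transporter of slow growth, was above WT in both, with 53.8 to 70.0 CPM against 445 to 481 and 14.6 in WT (-2.87). *FUR4*, the uracil permease, showed the reverse, with WT closer to the libraries labelled *elp3 tcd1*: it had 11.8 to 15.8 CPM against 95.2 to 106 and 79.5 in WT (-2.85).

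Of the increases in genes with at least 10 CPM in the higher group, the largest was *COS12* (YGL263W, chromosome VII, 2790 to 3932), a subtelomeric gene of the COS family, with 52.4, 53.1, 49.8 and 56.0 CPM in *elp3 deg1* against 6.15, 5.38 and 8.35 (log2 fold change 2.99, SE 0.14). *GND1* (YHR183W, chromosome VIII, 470960 to 472429), the major 6-phosphogluconate dehydrogenase, had 1556, 1550, 1626 and 1563 CPM against 241, 249 and 246 (2.69, SE 0.04, adjusted p = 1.8e-33). *INO1* (YJL153C, chromosome X, 134332 to 135933), inositol phosphate synthase, had 3253, 3122, 3310 and 3256 CPM against 708, 704 and 677 (2.22, SE 0.04). For *GND1* and *INO1* the WT means of 361 and 1129 CPM lay between the groups. The same order, *elp3 deg1* above WT and WT above the libraries labelled *elp3 tcd1*, held for the means of *HAP4*, the regulatory subunit of the activator of respiratory genes (382, 165 and 73.6 CPM, 2.38), of *KAR2*, the chaperone of the endoplasmic reticulum (1866, 805 and 516 CPM, 1.86), of *BAP3*, an amino acid permease (862, 432 and 181 CPM, 2.26) and of *DOG2*, a deoxyglucose phosphatase (2.38). *ECM13* had 393, 392, 298 and 293 CPM against 74.6, 78.2 and 75.9 and 57.2 in WT (2.18), so 2 of its *elp3 deg1* libraries lay above the other 2 while all 4 stayed apart from the rest. The zinc finger genes *STP4* (1.86) and *RGM1* (2.15) and *YDR261W-B* (1.94) and *YLR410W-B* (1.85), the last 2 being Ty element open reading frames, complete the list with the genes treated below.

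**Figure D2:**
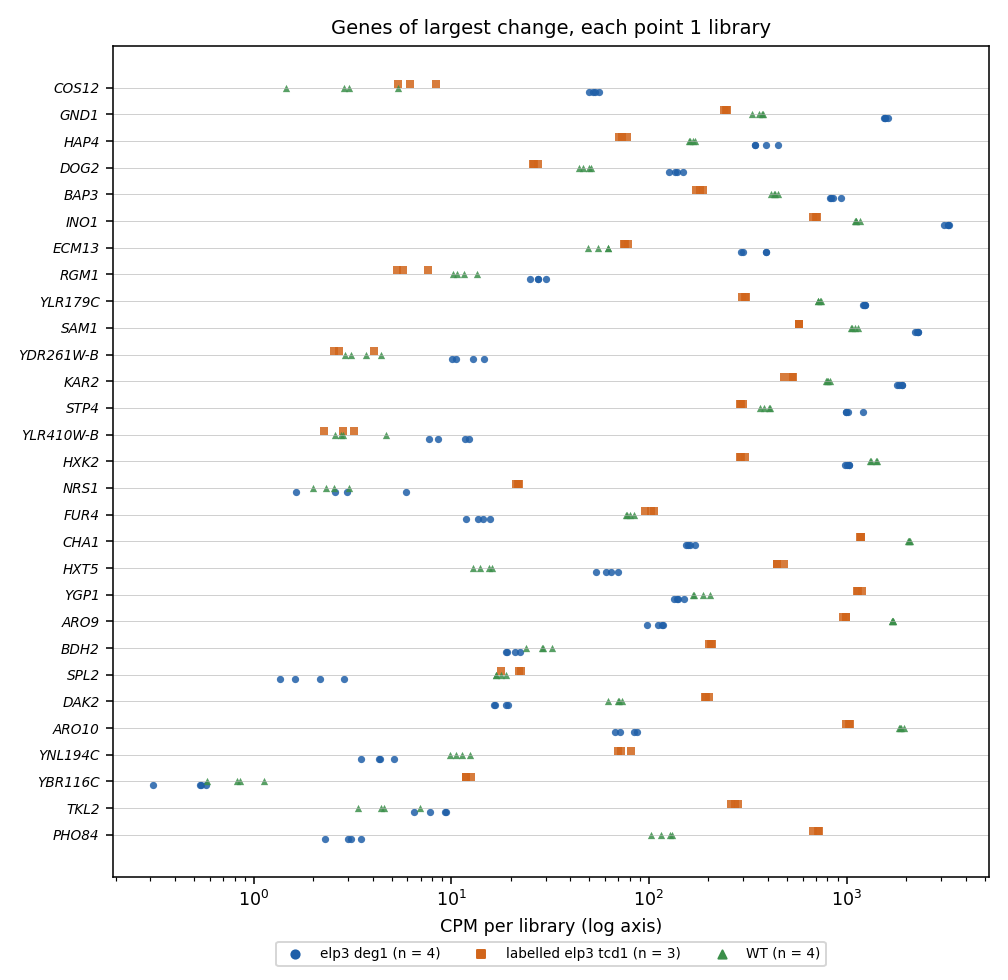
CPM in each library on a log axis for the genes of largest change apart from *DEG1*, one row per gene, ordered from the largest increase to the largest decrease. Circles are *elp3 deg1*, squares the libraries labelled *elp3 tcd1* and triangles WT. Rows were picked from genes whose circles and squares do not overlap, so that gap follows from the choice. WT lies beside, among or between the groups: for *PHO84* at 119 CPM it is between 2.97 and 707, and for *HXK2* at 1371 CPM it is above both groups.

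Most glycolytic genes were higher in *elp3 deg1*. *HXK2* (YGL253W, chromosome VII, 23935 to 25395), the hexokinase that also takes part in glucose repression, had 1032, 1026, 983 and 1010 CPM in *elp3 deg1* and 294, 289 and 304 CPM in the libraries labelled *elp3 tcd1* (log2 fold change 1.78, SE 0.04, adjusted p = 2.9e-28). Of 17 glycolytic genes, 14 were called higher and 2 lower, which is 82.4% and 11.8% against 29.9% and 29.3% of all tested genes, and their median log2 fold change was 0.86 against -0.02. *ENO1* (enolase) had 6554, 6656, 6290 and 6266 CPM against 2005, 2027 and 2033, and *PGK1* (phosphoglycerate kinase) rose by 1.62 and *TDH2* by 1.60. The most abundant, *TDH3*, rose by 0.90, while *HXK1*, the other hexokinase, fell by 0.27. Relative to WT, the list stood at a median of 1.02 to 1.14 (log2) in the 4 *elp3 deg1* libraries and 0.14 to 0.19 in the other 3, so the libraries labelled *elp3 tcd1* were near WT.

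The enzymes of the reverse route moved the other way. Of 14 gluconeogenic and glyoxylate genes, 10 were called lower and 1 higher (median -0.93). *MLS1*, malate synthase, had 6.18, 2.57, 4.64 and 4.08 CPM against 27.8, 25.2 and 22.8 (-2.51, SE 0.18), *SFC1* and *JEN1*, carriers of dicarboxylates and lactate, fell by 2.12 and 2.10, and *FBP1*, fructose bisphosphatase, fell by 1.79. *CIT2*, the most abundant, fell by 0.91. Among 25 hexose transport and sensing genes, 5 were higher and 8 lower (median -0.10), close to or under the shares over all genes, and 13 were lower under total-count scaling. The high-affinity transporters *HXT6* (-2.43) and *HXT7* (-2.11), whose near identical sequences leave the split of reads between them uncertain, and *HXT14* (-1.67) were lower, and the low-affinity *HXT3* was higher (0.90). *NRG1*, a repressor of glucose-repressed genes, fell by 1.05. Ethanol and acetate genes split, 6 higher and 6 lower of 17, or 35.3% each against 29.9% and 29.3% of all genes (median 0.05, and -0.12 under total-count scaling, where 5 rose and 8 fell). *ALD6*, the cytosolic aldehyde dehydrogenase, rose by 1.68 and *ACS2* by 1.34, *ADH2*, the glucose-repressed alcohol dehydrogenase, fell by 1.92 and *ALD3* by 1.52, and *PDC1*, the main pyruvate decarboxylase, was at 5142 ± 253 CPM (SD, n = 4) against 5191 ± 261 (SD, n = 3), a log2 fold change of -0.01 (SE 0.04, adjusted p = 0.86), both under WT at 13641 CPM.

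The pentose phosphate pathway showed both directions, also within the paralogs *GND1* and *GND2*. Of 11 genes, 5 were called higher and 5 lower, or 45.45% each against 29.9% and 29.3% of all genes (median 0.16, and -0.01 under total-count scaling). *GND1* rose by 2.69 and *ZWF1*, the entry enzyme, by 0.58, whereas *GND2*, *TKL2* and *NQM1* fell by 1.76, 5.03 and 1.83. *NQM1* had 110 to 114 CPM against 380 to 420.2 and 86.6 in WT, and *GND2* had 26.9 to 32.1 against 96.1 to 108 and 13.8 in WT. For *GND2*, *TKL2* and *NQM1*, *elp3 deg1* was the group closer to WT.

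Mitochondrial genes of energy metabolism were mostly higher. Of 17 tricarboxylic acid cycle genes, 14 rose and 2 fell (median 0.51, 0.33 under total-count scaling, where 10 rose and 2 fell). *ACO1*, aconitase, had 852, 935, 775 and 819 CPM against 276, 270.0 and 270.3 and 151 in WT (1.64, SE 0.05), and the isocitrate dehydrogenase subunits *IDH1* and *IDH2* rose by 1.11 and 1.16. Of 40 nuclear genes that encode respiratory complexes or the ATP synthase, 22 rose and 5 fell (median 0.22, 0.04 under total-count scaling, where 15 rose and 10 fell). *NDE1*, the external NADH dehydrogenase, rose by 1.39, *STF1* by 1.02, *ATP3* by 0.71 and *ATP16* by 0.63, while *COX5A* fell by 0.27 and *COX13* (-0.08) and *COX20* (0.06) were not called. Both groups exceeded WT for this list, by a median of 0.87 to 0.94 (log2) and 0.61 to 0.69. Of 73 genes of the mitochondrial ribosome, 4 were called higher and 12 lower, or 5.48% and 16.4% against 29.9% and 29.3% of all genes (median -0.03). Under total-count scaling 0 rose and 31 fell (median -0.21, against -0.19 over all genes). *RSM22* (-0.71) and *MRP49* (-0.69) were at the low end.

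**Figure D3:**
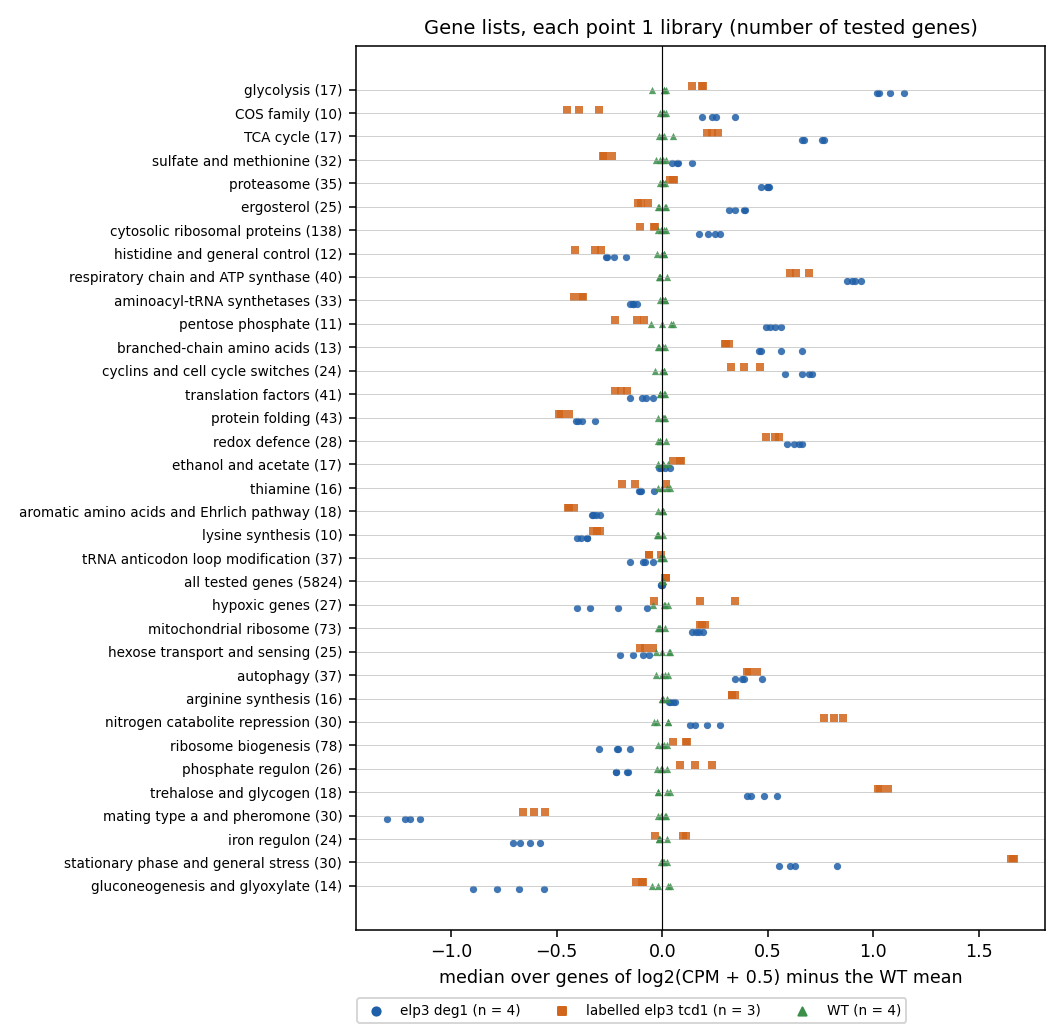
Each row is a gene list with its number of tested genes, and each point 1 library, placed at the median over the genes of log2(CPM + 0.5) minus the WT mean. Circles are *elp3 deg1*, squares the libraries labelled *elp3 tcd1*, triangles WT, and rows are ordered by the median log2 fold change between the first 2 groups. Glycolysis stands out at the top, with circles at 1.02 to 1.14 and squares at 0.14 to 0.19. In the row of stationary phase and stress genes, squares at 1.65 to 1.67 lie beyond circles at 0.55 to 0.83, and both are above WT.

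Genes of stationary phase and general stress were lower in *elp3 deg1*, though above WT in both groups. Of 30 such genes, 20 fell and 4 rose (median -0.86). *HSP12* (YFL014W, chromosome VI, 107256 to 107585), a membrane-protecting stress protein, had 904, 934, 899 and 826 CPM in *elp3 deg1* and 3772, 3928 and 3740 CPM in the libraries labelled *elp3 tcd1*, against 39.0 in WT (log2 fold change -2.09, SE 0.04, adjusted p = 1.1e-31). *HSP26*, a small heat shock chaperone, had 254, 293, 257 and 249 CPM against 1430, 1369 and 1433 and 150.3 in WT (-2.42). *GRE1*, *SIP18* and *FMP45*, known from osmotic stress and stationary phase, fell by 2.73, 2.64 and 2.52. Over the list, the *elp3 deg1* libraries stood at 0.55 to 0.83 (log2) relative to WT and the others at 1.65 to 1.67, which did not overlap. Storage carbohydrate genes showed the same order: 12 of 18 fell and 2 rose (median -0.49), with *GLC3*, the glycogen branching enzyme, at 73.9 to 86.5 CPM against 228 to 243 and 39.8 in WT (-1.53). *PGM2* fell by 1.37, *GSY2* by 0.81, *TSL1* by 0.45 and *TPS1* by 0.35, while *PGM1*, with 135 to 151 CPM against 42.5 to 51.9 and 172 in WT, rose by 1.58.

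Of 43 folding genes, 15 rose and 11 fell, which is 34.9% and 25.6% and near the 29.9% and 29.3% over all genes (median 0.10). Under total-count scaling 10 rose and 17 fell (median -0.08, against -0.19 over all genes). Among the named members, *SSA4* fell by 1.98, *HSP42* by 1.35, *BTN2* by 1.13, *SSE2* by 0.90, *HSP104* by 0.85, *HSP82* by 0.62 and *SSA1* by 0.32. Their relatives *SSA2* (0.74) and *HSC82* (0.51), known as constitutive chaperone genes, rose, and so did *ZUO1* (0.35), of the ribosome-associated complex. *SSA2* nonetheless stayed below WT, at 599 to 713 CPM against 366 to 404 and 1258 in WT. The proteasome genes rose nearly throughout, with 31 of 35 called higher and 1 lower (median 0.45, 0.27 under total-count scaling, where 25 rose). *PRE9* had 242 to 260.4 CPM against 147 to 152, and *PRE8* and *PUP3* rose by 0.64 and 0.61. The 1 lower gene was *RPN4*, which encodes the transcriptional activator of this set, with 177 to 214 CPM against 301 to 319 (-0.70, SE 0.05).

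Nutrient regulons differed in direction from one another. The phosphate genes were lower or not called in the main: 11 of 26 fell and 3 rose (median -0.28, with 16 and 2 under total-count scaling). After *PHO84* and *SPL2*, the members with the largest change were *PHO89*, the sodium phosphate transporter (-1.39), and *PHM7* (-1.23), and the most abundant was *PHO8*, the vacuolar phosphatase, with 340.5 to 372 CPM against 523 to 542 (-0.57). Sulfate and methionine genes rose, 24 of 32 called higher and 6 lower (median 0.49, 0.32 under total-count scaling, where 20 rose). *SAM1* (YLR180W, chromosome XII, 515262 to 516410), S-adenosylmethionine synthetase, had 2304, 2286, 2278 and 2228 CPM against 572, 574 and 576 (1.99, SE 0.04, adjusted p = 2.1e-31), and its head to head neighbour *YLR179C*, 548 bases away, had 1213 to 1241 against 296 to 311 (2.02). *MET6*, methionine synthase, had 12975, 13036, 12277 and 12220 CPM against 4162, 4228 and 4234, and *MET14*, adenylylsulfate kinase, 1098, 1140, 1084 and 1139 against 327, 354 and 347 (1.71). *JLP1*, a sulfonate dioxygenase, was the exception of largest size (-1.88). The list straddled WT, at 0.04 to 0.14 (log2) in *elp3 deg1* and -0.28 to -0.24 in the other libraries.

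The iron genes had no member called higher and 17 of 24 called lower (median -0.77, with 23 lower under total-count scaling). *FET3*, the multicopper oxidase of iron uptake, had 113, 107, 140 and 133 CPM against 451, 465 and 462 and 118 in WT (-1.90, SE 0.06), its partner permease *FTR1* 108 to 137 against 440 to 460 (-1.89), and *HMX1*, heme oxygenase, fell by 2.23. Over the list, *elp3 deg1* was at -0.71 to -0.58 (log2) relative to WT and the other group at -0.04 to 0.11. Of 30 genes under nitrogen catabolite repression or of ammonium assimilation, 15 fell and 8 rose (median -0.25, -0.42 under total-count scaling, where 17 fell and 4 rose). *PUT1*, proline oxidase, had 46.5 to 56.0 CPM against 181 to 187 (-1.81), *UGA4* and *PUT4* fell by 1.70 and 1.68, *DUR3* by 1.22 and *MEP2* by 0.54, while the assimilation enzymes rose, *GDH1*, with 3274, 3117, 3307 and 3298 CPM against 1436, 1522 and 1491 (1.14), and *GLN1* by 0.39. *GAT1* and *DAL3* rose by 0.29 and 0.30, but neither was called under total-count scaling, nor *GAT1* with replicate 4 kept.

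Amino acid pathways gave mixed lists, to be read against 29.9% higher and 29.3% lower over all genes. *LYS20*, homocitrate synthase at the head of lysine synthesis, had 125, 125, 134 and 129 CPM against 372, 388 and 382 (-1.56, SE 0.05), and *LYS4* (-0.78) and *LYS1* (-0.22) fell while *LYS12* (0.40) and the permease *LYP1* (0.38) rose, 2 higher and 3 lower of 10 (median -0.01). *LYS9* and *LYS14* were at 0.00 and -0.02. Of 16 arginine genes, 9 fell and 2 rose (median -0.16, -0.33 under total-count scaling, where 11 fell and 0 rose), with *ARG3* at -1.20 and *CAR1*, arginase, at -1.05. Aromatic genes apart from *ARO9* and *ARO10* changed by less than 0.5, with 7 higher and 7 lower of 18, or 38.9% each (median 0.00, -0.17 under total-count scaling, where 1 rose and 10 fell). Branched-chain genes were 7 higher and 3 lower of 13 (median 0.16, -0.02 under total-count scaling, where 5 rose and 6 fell), led by *BAP3* and *BAP2* (0.87). Histidine and general control genes were 7 higher and 3 lower of 12 (median 0.25, 0.07 under total-count scaling, where 4 rose and 3 fell), with *HIS5* at 0.68 and *GCN4*, the activator, at 1827 to 1933 CPM against 1462 to 1546 (0.33). *LYS2*, for which every group carries the label *lys2*, still had 59 to 84 counts against 79 to 96 (-0.12, adjusted p = 0.42).

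Several of these regulons are read by factors with known sites, and the promoters of 5 members called in these lists are shown with those sites, as examples chosen after their values were seen. The search took the 600 bases before each coding start on both strands, in 5593 tested protein-coding genes of the RefSeq R64 genome. The hexamer CACGTG is the core site of Pho4, the activator of phosphate genes, and of Cbf1, which acts on methionine genes, and its capitals mark it below in *PHO84* (chromosome XIII, 26189 to 26256, minus strand) and *MET14* (chromosome XI, 439588 to 439633, minus strand). It starts 436 and 414 bases before the coding start of the first and 228 bases before that of the second.
PHO84: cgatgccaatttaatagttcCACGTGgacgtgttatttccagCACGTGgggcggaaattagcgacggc
MET14: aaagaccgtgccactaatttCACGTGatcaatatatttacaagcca
Of all promoters searched, 7.26% held CACGTG, against 18 of 26 in the phosphate list and 23 of 32 in the sulfate and methionine list. It was present in 10 of the 11 phosphate genes called lower and in 17 of the 24 sulfate and methionine genes called higher, so the same letters stand before genes that moved in opposite directions. A match is a description and not evidence of binding.

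Aro80, which activates *ARO9* and *ARO10* when aromatic amino acids abound, binds the pattern CCGNNNNNNNCCG. In the windows below the capitals mark that pattern on either strand, with overlapping matches run together, and in *ARO9* also CACGTG. The windows lie on chromosome VIII, 375436 to 375588, and on chromosome IV, 1233856 to 1233993, both on the plus strand, and the first is part of the region shared with *SPL2*.
ARO9: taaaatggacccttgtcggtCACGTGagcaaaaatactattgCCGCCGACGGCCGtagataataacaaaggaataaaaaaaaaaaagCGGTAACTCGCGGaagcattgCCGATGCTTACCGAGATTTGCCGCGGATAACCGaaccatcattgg
ARO10: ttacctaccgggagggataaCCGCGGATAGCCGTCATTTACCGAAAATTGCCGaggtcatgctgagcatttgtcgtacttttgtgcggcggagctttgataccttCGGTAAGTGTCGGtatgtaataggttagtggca
The pattern occurred in 6.47% of all promoters and in 4 of 18 of the aromatic list. The window shown holds 5 matches in *ARO9* and 4 in *ARO10*.

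The stress response element AGGGG, the site of Msn2 and Msn4, occurred in 22 of 30 promoters of the stationary phase list, in 18 of its 20 genes called lower and in 1 of its 4 called higher, against 40.2% of all promoters. In *HSP12* the window shown holds 5 matches, in capitals on either strand (chromosome VI, 106801 to 107090, plus strand).
HSP12: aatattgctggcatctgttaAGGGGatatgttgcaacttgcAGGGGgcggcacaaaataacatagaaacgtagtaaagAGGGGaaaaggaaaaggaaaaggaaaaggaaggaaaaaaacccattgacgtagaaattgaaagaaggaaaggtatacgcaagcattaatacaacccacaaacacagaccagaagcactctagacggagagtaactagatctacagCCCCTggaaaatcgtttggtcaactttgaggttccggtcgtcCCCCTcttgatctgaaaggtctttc
For the other lists searched, the shares were GATAAG in 26 of 30 nitrogen genes (26.6% of all), TGACTC in 14 of 16 arginine genes and 4 of 10 lysine genes (15.7%), CCAAT in 37 of 40 respiratory genes (70.6%), CTTCC in 15 of 17 glycolytic genes (72.2%) and ATTGTT in 22 of 27 hypoxic genes (54.8%). AGGGG was in 15 of 18 storage carbohydrate promoters, in 9 of the 12 genes called lower and in 2 of the 2 called higher. GATAAG was in 14 of the 15 nitrogen genes called lower and in 7 of the 8 called higher.

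Genes of the translation machinery moved in 2 directions. Of 138 cytosolic ribosomal protein genes, 112 were called higher and 5 lower, or 81.2% and 3.62% (median 0.29, and 0.11 under total-count scaling, where 65 rose and 17 fell). The sizes were small: *RPL40B* rose by 0.71, *RPS6B* by 0.64 and *RPL42A* by 0.60, *RPS22B* fell by 0.87, and *RPL3*, the most abundant, stood at 2903 to 2965 CPM against 2912 to 2960.3 (0.00, adjusted p = 0.91). Reads of the near identical paralogs in this family may be split between them. Of 78 genes of ribosome biogenesis, 53 fell and 1 rose (median -0.25, with 70 and 0 under total-count scaling), with *NOP14*, of the small subunit processome, at 87.7 to 117 CPM against 187 to 199.8 (-0.87) and *ENP2* at -0.73. Of 41 translation factors, 17 rose and 3 fell, or 41.5% and 7.32% against 29.9% and 29.3% of all genes (median 0.10). Under total-count scaling 4 rose and 9 fell, against 1092 and 2607 of all 5824 genes (median -0.07, against -0.19). *HYP2*, eIF5A, had 626, 657, 656 and 648 CPM against 356, 343 and 328 (0.92), and its hypoxic paralog *ANB1* had 4.62 to 5.37 CPM against 3.12 to 3.79 (0.54, adjusted p = 0.076). Of 33 aminoacyl-tRNA synthetases and partners, 18 rose and 1 fell (median 0.21, 0.036 under total-count scaling, where 14 rose and 7 fell), among them *ARC1* (0.77), *GUS1* (0.72) and *KRS1*, lysyl-tRNA synthetase (0.29). Among 37 genes of anticodon loop modification, *DEG1*, *TCD1* and *ELP3* included, 6 rose and 9 fell, both under the share over all genes (median -0.01). The 9 include *DEG1* and also *ELP3*, labelled as deleted in both groups. *ELP3* was called at 0 to 3 against 3 to 7 counts, near the floor (-2.16, SE 0.70). Under total-count scaling 3 rose and 19 fell (median -0.19, as over all genes). *KTI11*, a partner of Elongator, had 45.6 to 58.5 CPM against 96.2 to 109 and 121 in WT (-1.04). *URM1* had 146 to 183 counts against 195 to 227 (-0.24, adjusted p = 0.018), and *SRP21*, a subunit of the signal recognition particle, rose by 0.52.

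Pheromone and a-cell genes were lower, 19 of 30 called lower and 3 higher (median -0.57). *FAR1*, the cell cycle inhibitor of the pheromone response, had 11.1 to 17.9 CPM against 36.4 to 44.8 and 52.0 in WT (-1.43), *PRM1* fell by 1.79, and *PRM5*, a gene of the cell integrity pathway, rose by 0.70. Both groups were below WT for the list, at -1.30 to -1.15 and -0.66 to -0.56 (log2). The summed a-cell markers given above move with this list, their part in it was not tested, and of the alpha markers *STE3* was called higher (0.59) and *SAG1* was not (0.08). Of 24 cyclin and cell cycle genes, 9 rose and 3 fell, or 37.5% and 12.5% against 29.9% and 29.3% of all genes (median 0.14, -0.04 under total-count scaling, where 8 rose and 7 fell). The daughter cell genes *CTS1*, chitinase, with 943, 892, 958 and 947 CPM against 335, 319 and 353 (1.48), and *EGT2* (1.23) rose with the G1 cyclin *CLN2* (1.22), and *NRM1* fell by 1.11.

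Sterol synthesis genes rose in 18 of 25 cases and fell in 4 (median 0.32, 0.14 under total-count scaling, where 12 rose and 5 fell), with *ERG20*, farnesyl diphosphate synthase, at 594 to 622 CPM against 219.8 to 231 (1.43). Redox defence genes were 12 higher and 7 lower of 28 (median 0.08, -0.09 under total-count scaling, where 7 rose and 12 fell): the peroxiredoxin *TSA1* and thioredoxin *TRX1* each rose by 1.04, and catalase *CTT1* fell by 1.77. Of 10 tested COS genes, 7 rose and none fell (median 0.83), with *COS10* at 1.53 and *COS111* at 1.18 after *COS12*, and reads of these repeated genes may be shared among copies. Autophagy genes were 8 higher and 10 lower of 37, or 21.6% and 27.0%, both under the shares over all genes (median -0.10). Under total-count scaling 4 rose and 20 fell (median -0.28, against -0.19 over all genes). *ATG17* was at 0.80 with TMM factors. Hypoxic genes were 8 higher and 2 lower of 27, or 29.6% and 7.41% (median -0.03). Under total-count scaling 3 rose and 8 fell (median -0.21, against -0.19 over all genes). Thiamine genes were 5 higher and 4 lower of 16 (median 0.02, -0.16 under total-count scaling, where 3 rose and 6 fell), the changes of the near identical *THI13* (1.77) and *THI12* (1.18) resting on levels under 11 CPM, and *THI12* lost its call without replicate 3 of *elp3 deg1*.

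The codons read by both tRNAs were followed across 5578 genes with a coding sequence. They were split into 5 bins of equal size by the share of a codon. For the glutamine codon CAA, the median log2 fold change was -0.02, -0.02, -0.03, -0.03 and 0.06 from the lowest to the highest bin. For the lysine codon AAA it was 0.10, 0.01, 0.01, -0.05 and -0.09, and for the glutamine codon CAG 0.13, 0.01, -0.04, -0.08 and -0.06. The synonymous lysine codon AAG gave -0.02, -0.05, -0.03, -0.01 and 0.06. Every step between bins was smaller than the distance between the quartiles of a bin, which shows the spread among genes and not the error of a median. Pearson's r across genes lay between -0.08 and 0.09, and Spearman's rho between -0.13 (CAG) and 0.08 (AAG), with -0.12 for AAA (genes are not independent replicates). From the lowest to the highest bin, the share called higher went from 43.0% to 21.2% for AAA and from 43.6% to 24.8% for CAG. It went from 28.9% to 37.6% for CAA and from 27.8% to 38.7% for AAG. Ribosomal protein genes, short and rich in CAA and AAG, made up 134 of the 1116 genes lowest in CAG and 98 of those lowest in AAA. Without them the median of the bin lowest in AAA was 0.07 and that of the bin richest in CAA 0.04. Genes in the bin of shortest length had a median of 0.11 and those in bin 4 one of -0.10.

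**Figure D4:**
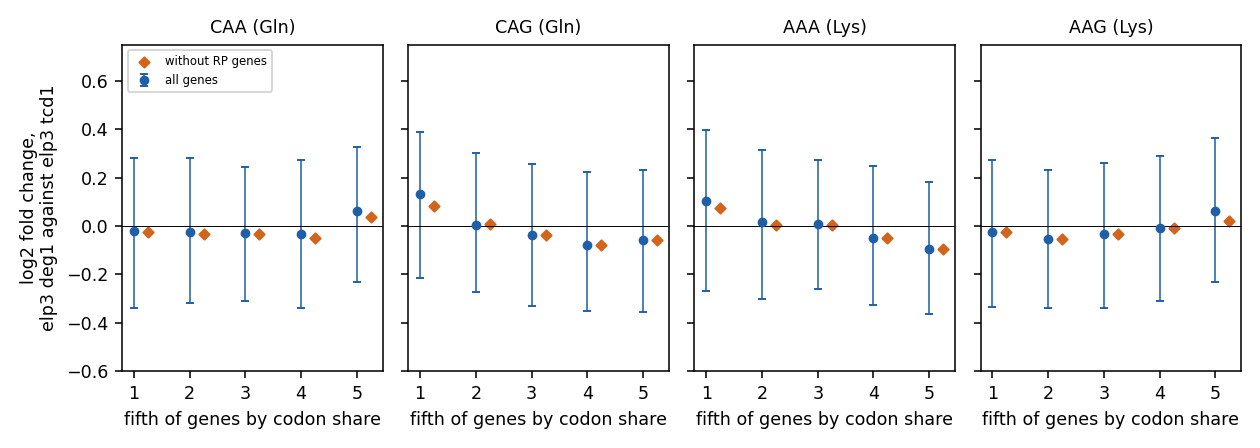
Median log2 fold change (y axis, bars from the lower to the upper quartile) over 5 bins of the genes by the share of a codon (x axis), for 2 glutamine and 2 lysine codons. Diamonds give the median without ribosomal protein (RP) genes. The medians move by less than the quartile bars, from 0.10 to -0.09 for AAA and from -0.02 to 0.06 for CAA.

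A contrast of the same kind in the *urm1* background, where thiolation of the wobble uridine is lost, used 4 libraries labelled *urm1 deg1* and replicates 1 to 3 of *urm1 tcd1*, and shares no library with the first. *TCD1* had 0.34, 0 and 0.69 CPM in those *urm1 tcd1* libraries, but 42.6, 41.65 and 46.8 CPM in the libraries labelled *elp3 tcd1*. The contrasts thus differ in *TCD1* level as well as in background, and its part in the values below was not tested. In the *urm1* background 35.4% of genes were called higher and 33.2% lower. Chromosome XI was higher as a whole in *urm1 tcd1* replicates 1 to 3. Its genes were thus lower by a median of 0.99 (log2) in *urm1 deg1* relative to that group, whereas the medians of all other chromosomes lay between 0.00 and 0.18. The 325 genes of chromosome XI were left out of the following counts. Across the 5499 other genes, Pearson's r between the fold changes was 0.07 and Spearman's rho -0.02. Of 3251 genes called in the *elp3* background, 2304 were also called in the *urm1* background (70.9% of the former and 62.3% of the 3698 called in the latter), 1090 in the same direction and 1214 in the opposite one. The test of the difference itself, an interaction term over 14 libraries, called 3659 of these 5499 genes. With chromosome XI included it called 3933 of the 5824 tested genes (67.5%).

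Several of the genes that changed most in the *elp3* background behaved differently in the other, which follows in part from how they were picked. *PHO84* fell in both, by 7.87 and 2.78, and the difference of -5.10 was called. *TKL2* was at -0.45 and *GND1* at -0.52 in the *urm1* background, with differences of -4.58 and 3.21. *DAK2* (1.39) and *CHA1* (0.71) went up there, and *INO1* (-1.06), *KAR2* (-0.95) and *HAP4* (-1.13, on chromosome XI) went down. *COS12* changed alike in size, by 2.99 and 3.04, with a difference of -0.05 (SE 0.29, adjusted p = 0.88 by edgeR), and so did *CTS1* (1.48 and 1.48). Among genes with at least 10 CPM in some group, the largest differences off chromosome XI, beside that of *TCD1*, were in genes at low levels in *urm1 tcd1*: *ADH2* had 65.2 to 78.5 CPM in *urm1 deg1* and 1.37 to 6.35 in *urm1 tcd1* (difference -6.04), and *ANS1*, *ATR2*, *PRM6* and *YOR333C* had under 2 CPM in each *urm1 tcd1* library and 7.67 to 17.97 in *urm1 deg1*. By list, median log2 fold changes in the *elp3* and *urm1* backgrounds were 0.86 and -0.62 for glycolysis, 0.29 and -0.53 for cytosolic ribosomal proteins, 0.45 and -0.33 for the proteasome, -0.57 and 1.501 for pheromone genes, -0.77 and -0.95 for iron genes, 0.32 and 0.47 for sterol genes and 0.83 and 0.83 for COS genes. Differences between lists were not tested.

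**Figure D5:**
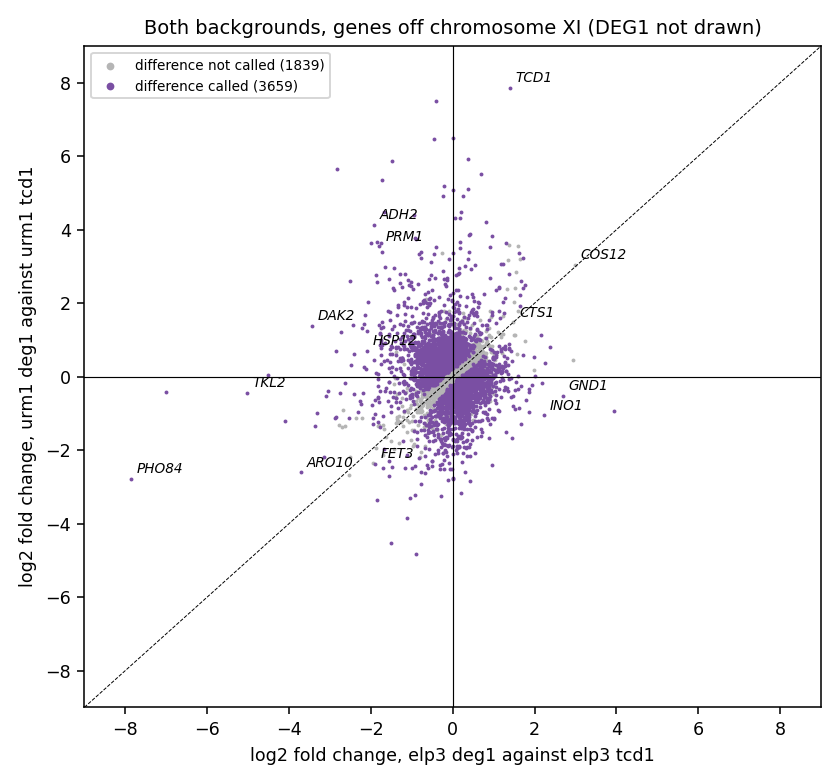
Each point is a tested gene off chromosome XI, with its log2 fold change in the *elp3* background on the x axis and in the *urm1* background on the y axis. Purple points have a called difference between backgrounds, and the dashed line marks equal changes. The cloud does not follow the line (Pearson's r 0.07). *PHO84* lies at -7.87 and -2.78 and *COS12* on the line at 2.99 and 3.04.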

How the data were processed

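Polyadenylated RNA was sequenced from 5 groups of 4 samples as strand-specific libraries (250 ng of RNA, 11 PCR cycles). According to the study's methods and processing notes, the authors mapped reads with STAR 2.5.1b to R64-1-1.84 and counted them with HTSeq, whereas the header of each deposited table names featureCounts 1.4.6-p2. The deposited values are raw read counts per gene, without normalization. Groups and replicate numbers came from the sample labels.

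The 7 libraries were tested in R 4.3.3 with edgeR 4.0.16 (TMM factors, filterByExpr with a minimum count of 10, quasi-likelihood test, Benjamini-Hochberg adjusted p of 0.01), and the interaction over 14 libraries likewise. CPM use the TMM factors. Mitochondrially encoded genes (55) were left out. The code was first tested on simulated data. Alternatives were RLE, upper quartile and total-count scaling, DESeq2 1.42.0, no filter, 1 fit over 5 groups, replicate 4 kept, a replicate block, an adjusted p of 0.05 and leaving out each library. Genes named are the deleted genes and *LYS2*, the 15 largest changes in each direction among called genes that did not overlap and had at least 10 CPM in the higher group, the 4 largest called changes and the most abundant member of each of 36 lists, genes named in the study, and the 6 largest differences between backgrounds. Lists and members were chosen with earlier results of these data known. Medians and figures were made with Python 3.11.15 (pandas 2.3.3, matplotlib 3.10.9).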

Additional observations from a re-analysis of the deposited data

Results flagged for a closer look

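The effect in the *elp3* background differed from that in the *urm1* background, by an interaction term in edgeR's quasi-likelihood fit, for the following genes. A positive difference means that the log2 fold change of *deg1* relative to *tcd1* was higher in the *elp3* background. Among the genes of largest decrease, the difference was -5.10 for *PHO84*, -4.84 for *DAK2*, -4.58 for *TKL2*, -4.56 for *YBR116C*, -3.57 for *CHA1*, -2.89 for *YNL194C*, -2.64 for *YGP1*, -2.33 for *BDH2*, -2.30 for *NRS1*, -2.04 for *SPL2*, -1.75 for *FUR4*, -1.73 for *HXT5*, -1.11 for *ARO10* and -0.96 for *ARO9*. All of these fell further in the *elp3* background, but they were picked by their fall there, so that order largely follows from the choice. Over all tested genes, 67.5% had a called difference. In the *urm1* background *DAK2* and *CHA1* rose, while *YBR116C* (0.05) and *NRS1* (-0.44) were not called.

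Among the genes of largest increase, the difference was 3.51 for *HAP4*, 3.28 for *INO1*, 3.21 for *GND1*, 2.81 for *KAR2*, 2.41 for *HXK2*, 2.36 for *ECM13*, 2.28 for *STP4*, 2.19 for *YLR410W-B*, 2.18 for *YDR261W-B*, 2.00 for *YLR179C*, 1.89 for *BAP3*, 1.56 for *DOG2*, 1.47 for *SAM1* and 1.01 for *RGM1*. *HAP4* lies on chromosome XI, whose genes had a median of -0.99 in the *urm1* background, and the part of that shift in its difference was not tested. *COS12* alone of the 15 showed no called difference (-0.05). These 15 were picked by their rise in the *elp3* background, so a positive difference largely follows from the choice too. The difference of *RGM1* lost its call without replicate 3 of *elp3 tcd1*, or without replicate 1 or 3 of *urm1 tcd1*.

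The differences of *ANS1* (-7.09), *ATR2* (-6.93), *TCD1* (-6.45), *ADH2* (-6.04), *PRM6* (-5.55) and *YOR333C* (-5.54) rest on the low levels in *urm1 tcd1*. For all of them but *ADH2* these levels are at or near 0 counts, so the fitted sizes depend on the prior count of the model.

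A single library stood apart from the rest of its group in 2 of 73 groups of 4 that were looked at, while chance gives about 1 in 20. *STP4* had 1211 CPM in replicate 2 of *elp3 deg1*, and *YLR410W-B* had 4.65 CPM in 1 WT library.

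Reads on mitochondrially encoded genes, which no comparison used, were more numerous in both mutants than in WT. At the lowest they summed to 138 counts in *elp3 deg1* and 196 counts in the libraries labelled *elp3 tcd1*, against at most 53 in WT, and most fell on the *21S_rRNA* gene.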

How the results depend on the processing

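The 1744 higher and 1709 lower genes stayed within 1.5 times their number under RLE (1765 and 1682), upper quartile scaling (1508 and 1988), DESeq2 (1582 and 1424), no filter (1787 and 1702), an adjusted p of 0.05 (1965 and 2000), 1 fit over all groups (1750 and 1753) and with single libraries left out (1598 to 1744 and 1542 to 1687). The DESeq2 calls were all shared with edgeR. They left that range under total-count scaling (1092 and 2607), with replicate 4 of *elp3 tcd1* kept (755 and 707) and with a log2 fold change of at least 1 (153 and 286). No gene was called in opposite directions under RLE, upper quartile or total-count scaling, DESeq2, no filter, the fit over all groups, the block or with replicate 4 kept. With replicate 4 kept, *HIS4* (-0.080), *RPL40B* (-0.11), *ATP7* (-0.068) and the median of the branched-chain list (-0.025) changed sign. Beside these 3 genes, the results of 75 named genes were then weaker, among them *HSP12*, *ADH2* and *GLC3*, and those of 144 stayed the same. Of the named differences between backgrounds, 13 were weaker and 23 the same with replicate 4 of both *tcd1* labels kept. Under total counts, sign changes included *RPN2* (-0.032), *HSP60* (-0.032) and the medians of the pentose phosphate (-0.015), branched-chain (-0.017), translation factor (-0.073) and cyclin lists (-0.036). The medians of the ethanol and acetate (-0.12), aromatic (-0.17), protein folding (-0.078), redox defence (-0.093), thiamine (-0.16) and alpha marker lists (-0.091) changed sign there too. Leaving out a single library ended the call of 10 named genes, *AAC3*, *ELP3*, *HSP60*, *MRPL31*, *PAU4*, *PRM3*, *PRM9*, *RPN2*, *THI12* and *THI5*.

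The interaction called 1944 positive and 1989 negative differences, 794 and 789 with both replicates labelled 4 kept, and 1861 to 1953 and 1848 to 1960 with single libraries left out. The cause of these shifts was not tested.

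The replicate block gave 1696 higher and 1649 lower genes, and 1932 and 1973 differences. Deviations of same-numbered libraries correlated by 0.02, 0.03 and 0.01, so the samples share only a number. Leaving out shifted chromosomes was not run for the *elp3* pair, where no chromosome median passed 0.2. Without chromosome XI, the interaction called 1795 and 1838. A 4 against 3 permutation test of a single gene cannot reach 0.05 (two-sided). Genes under about 1 CPM lie at the counting floor.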
